A study of Arabidopsis thaliana with 6 samples.

Results

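The RD26 group of stress NAC factors comprised 7 Arabidopsis thaliana genes, RD26 (AT4G27410, also ANAC072), ANAC055 (AT3G15500), ANAC019 (AT1G52890), ATAF1 (AT1G01720), ATAF2 (AT5G08790), ANAC102 (AT5G63790) and ANAC032 (AT1G77450). They were chosen by their place in the NAC family, with the WT and pkl levels of the deposited comparison in view. Of the 7, 2 had a row in the table of loci lower in the pkl mutant, RD26 and ANAC055. The other 5 had none, so they were not listed as lower, and no level of theirs was analysed here. The table compared 14-day-old seedlings grown in long days, 3 libraries from wild-type plants (WT) and 3 from pkl. PKL (PICKLE) encodes a CHD3 chromatin remodeler; the labels name the mutant only as pkl and give neither the allele nor the harvest time. Each genotype had 1 level per locus in FPKM, the number of sequenced fragments scaled by transcript length and by all mapped fragments, which the authors had combined over its libraries. No spread between libraries, standard error or depth can therefore be given.

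NAC factors are plant transcription factors with a conserved DNA-binding domain at the amino end and a variable activation region behind it. Dehydration and salt raise the stress hormone abscisic acid (ABA). Through its receptors, phosphatases and kinases, ABA activates bZIP factors that bind ABA-responsive elements (ABRE). RD26 acts in this response and also opposes growth driven by brassinosteroids. ANAC019 and ANAC055 act beside RD26 in dehydration, and all 3 are targets of the jasmonate factor MYC2. ATAF1 is tied to drought, ABA synthesis and leaf senescence, ATAF2 to wounding and pathogens, ANAC102 to low oxygen and ANAC032 to stress and senescence.

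The sequences before the starts of both lower genes, with ANAC019 as the closest relative of ANAC055 and ANAC032 as the member with the most ABRE matches, show how their promoters differ. Each is the 250 bases before the annotated gene start (RefSeq, TAIR10.1), read 5′ to 3′ on the gene's strand. Capitals mark matches on either strand to the G-box CACGTG, which MYC factors bind, the ABRE ACGTGNC, the core CCGAC of the dehydration-responsive element (DRE) bound by CBF and DREB factors, the W-box core TTGAC bound by WRKY factors, or CATGTG, a site of stress NAC factors.
RD26 promoter, chr4:13709171-13709420, minus strand: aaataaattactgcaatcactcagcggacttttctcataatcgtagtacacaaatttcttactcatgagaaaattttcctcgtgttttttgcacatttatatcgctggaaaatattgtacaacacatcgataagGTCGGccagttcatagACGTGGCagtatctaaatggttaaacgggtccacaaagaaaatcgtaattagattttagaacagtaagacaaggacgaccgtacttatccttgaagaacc
ANAC055 promoter, chr3:5234207-5234456, plus strand: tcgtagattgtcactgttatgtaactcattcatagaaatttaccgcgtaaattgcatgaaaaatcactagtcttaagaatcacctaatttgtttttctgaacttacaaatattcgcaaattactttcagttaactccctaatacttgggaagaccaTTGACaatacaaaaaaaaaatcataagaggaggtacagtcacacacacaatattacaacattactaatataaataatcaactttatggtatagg
ANAC019 promoter, chr1:19698483-19698732, minus strand: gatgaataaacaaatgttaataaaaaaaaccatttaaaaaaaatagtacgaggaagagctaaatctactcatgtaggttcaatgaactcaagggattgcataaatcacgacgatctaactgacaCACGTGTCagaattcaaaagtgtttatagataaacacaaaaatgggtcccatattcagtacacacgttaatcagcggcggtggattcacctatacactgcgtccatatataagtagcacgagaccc
ANAC032 promoter, chr1:29099589-29099838, plus strand: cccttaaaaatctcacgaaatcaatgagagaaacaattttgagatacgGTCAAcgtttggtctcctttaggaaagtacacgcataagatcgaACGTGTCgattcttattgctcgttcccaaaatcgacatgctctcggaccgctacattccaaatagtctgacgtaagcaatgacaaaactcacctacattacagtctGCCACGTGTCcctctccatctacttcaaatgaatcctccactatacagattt

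RD26 held an ABRE match that began at position -100 and a DRE core that began at -116, counted from the gene start. ANAC055 held neither, and its only match was a W-box core that began at -94. ANAC019 held a G-box that overlapped an ABRE match, and ANAC032 held 3 ABRE matches, of which 2 overlapped a G-box. No member had CATGTG in this window. In windows of 300 bases, from 250 before the start to 50 after it, an ABRE match was present in 1 of the 2 lower members and in 2 of the 5 others, against 10.3% of the promoters of 27443 protein-coding genes. The G-box was in 0 of 2 and 2 of 5, against 7.68% of all promoters. A DRE core was in 1 of 2 and 1 of 5, against 15% of all, and a W-box core in 1 of 2 and 4 of 5, against 50.5%. The lower members thus had none of the 5 motifs in common in this window. The windows depend on the annotated gene start. For ANAC055 this start was at position 5234457, but the deposited locus began farther downstream, at 5234617. For RD26, on the minus strand, the 2 starts lay closer together, at 13709170 and 13709149. Windows set from the deposited loci were not searched, so the matches of ANAC055 hold for the RefSeq start only. ANAC102 had no match to any of the 5 motifs. A match describes the letters alone.

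**Figure D1:**
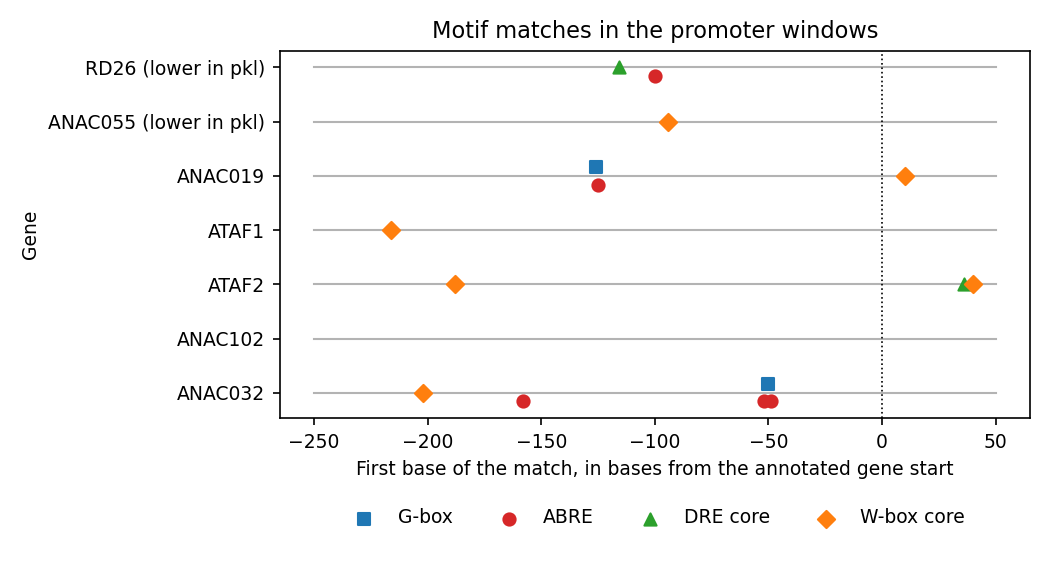
Positions of motif matches in the 7 promoter windows, in bases from the annotated gene start (dotted line at 0); each symbol is the first base of a match and each grey line a window of 300 bases. The ABRE of RD26 lies at -100, the W-box core of ANAC055 at -94, and ANAC102 has no match.

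RD26 was lower in pkl. Its level in the authors' deposited table was 20.2 FPKM in WT against 7.6 FPKM in pkl, so 37.6% of the WT level was left (2.66-fold lower, log2 fold change -1.41, authors' q = 0.000338). The locus spans chromosome 4, positions 13707240 to 13709149 (TAIR10). The annotated gene has 3 transcripts on the minus strand, and the single value does not tell them apart.

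ANAC055 fell further. From 11.8 FPKM in WT its level went to 2.05 FPKM in the mutant, per the authors' deposited table, so 17.3% was left (5.78-fold lower, log2 fold change -2.53, authors' q = 0.000338). Its locus spans chromosome 3, positions 5234617 to 5236088, and the gene has 1 annotated transcript of 3 exons on the plus strand. RD26 had 1.7 times the FPKM of ANAC055 in WT and 3.71 times in pkl. Together the pair went from 32 to 9.65 FPKM.

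Both genes were taken up with these values known, so the levels are a description. The 2 listed of 7 are 28.6%, beside 14.8% of the 19554 tests implied by the authors' p-values and q-values that were called lower. Nothing is read from that difference, since the same contrast was used to propose the group. Both had the smallest p the table holds, 5e-05. The q of 0.000338 is shared by 1428 of the 2896 loci (49.3%), so it does not rank them. By fold, 53 loci of the table exceeded ANAC055 and 348 exceeded RD26, and the median locus was 1.52-fold lower. In WT level both lay near the middle of the table: 55% of its loci were below RD26 and 41% below ANAC055.

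The p-values rest on 3 libraries a genotype, and nothing in the labels says that these came from separate cultures, so they may measure technical spread alone. In whole seedlings, fewer cells of a type and less RNA per cell cannot be told apart. All root markers chosen and some of the shoot markers were lower too, where 14.8% of all tests were called lower. All 5 root markers were in the table, and their summed level was 126 FPKM in WT and 78.5 FPKM in pkl. Of 5 shoot markers 2 were in it, the antenna gene LHCB2.1 (1616 FPKM in WT, 665 FPKM in pkl) and the guard cell factor FAMA (19.1 and 7.31 FPKM). RBCS1A, CAB3 and MYB60 had no row. No marker in the table was at 0, and their part in the values of RD26 and ANAC055 was not tested. PKL, the mutated gene, went from 19.2 to 6.79 FPKM.

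**Figure D2:**
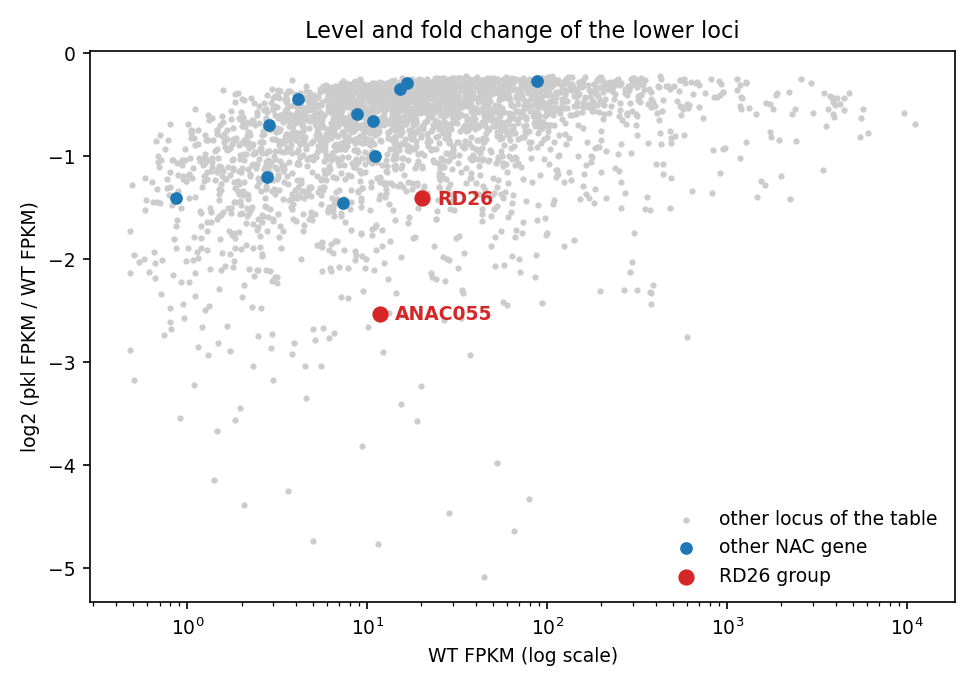
Log2 fold change of pkl over WT (vertical) against the WT level in FPKM (horizontal, log scale) for the 2896 lower loci, 1 point per locus. RD26 at -1.41 and ANAC055 at -2.53 (red) lie below the median of -0.60; blue points are the other 11 NAC genes of the table.

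The 7 genes fell into 2 sets by coding sequence. RD26, ANAC055 and ANAC019 shared 71.3% to 80.4% of aligned bases, and the 4 others shared 71.1% to 81.7%. Between the sets identity was 65.2% to 69.6%. Both lower genes belong to the first set, in which ANAC019, 80.4% identical to ANAC055 and 72.7% to RD26, had no row. ANAC019 lies on chromosome 1, positions 19696923 to 19698482 of the annotation, and like each other member has 3 exons in its first annotated transcript. ATAF1 lies on the same chromosome at 267993 to 269819 and ANAC032 at 29099839 to 29101759, while ATAF2 (2858849 to 2860558) and ANAC102 (25526509 to 25528281) lie on chromosome 5. The closest pair of all, ATAF2 and ANAC102 at 81.7%, had no row for either gene.

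The coding sequences of both lower genes were nearly free of stretches found in other genes. No stretch of 50 coding bases of any member occurred in the coding sequence of another gene. For stretches of 25 bases this held for RD26 too, while 8 of 930 such stretches of ANAC055 (0.86%) occurred in 1 other gene. They came from 1 run of 32 bases shared with ATAF2, at coding positions 451 to 482 of ANAC055 and 442 to 473 of ATAF2, the longest run shared by any pair of members.
Run shared by ANAC055 and ATAF2: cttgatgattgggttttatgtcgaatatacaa
The length of the sequenced reads is not given in the sources used here.

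**Figure D3:**
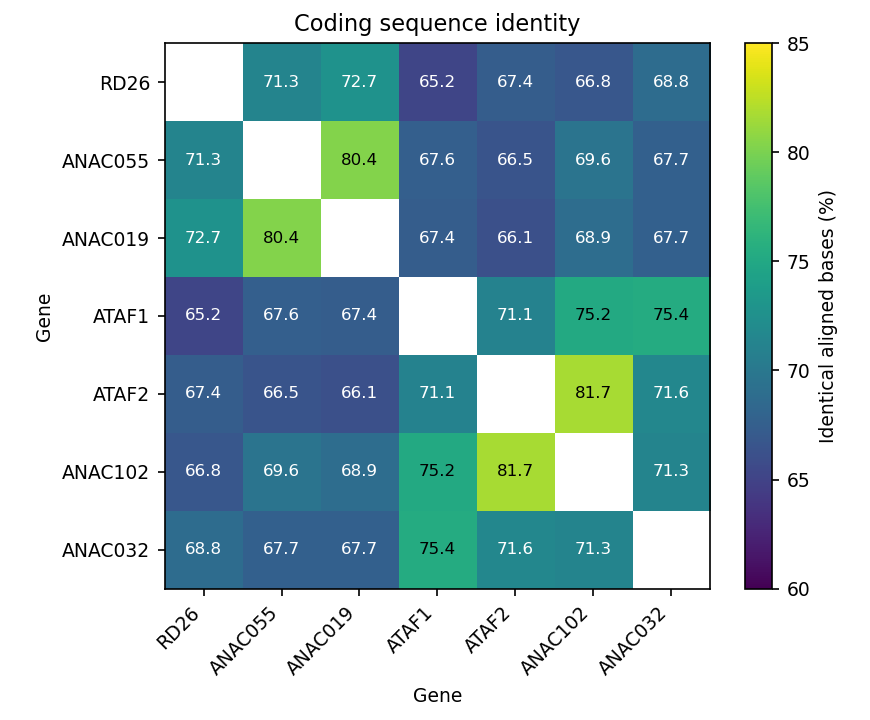
Percent of identical bases among aligned bases of the longest coding sequences, for each pair of the 7 genes (colour and number). ANAC055 and ANAC019 (80.4%) and ATAF2 and ANAC102 (81.7%) are the closest pairs.

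Beside the 7 genes, the annotation holds 110 other NAC genes, of which 11 (10%) were lower in pkl. That share is under the 14.8% of all tests, but which of the 110 the authors had tested is not known, and the same holds for the pathway lists that follow. Those lists were also drawn up with earlier results of these data known, so nothing is read from their shares. The folds of the 11 other NAC genes ran from 1.21 to 2.74 with a median of 1.58, and 3 of the 11 were at least 2-fold lower. ANAC055 had a larger fold than each of the 11. RD26 had a larger fold than 10 of them, the exception being AT3G12977, an uncharacterised NAC gene that fell from 7.32 to 2.68 FPKM (2.74-fold). CUC2, which sets organ boundaries, had nearly the same fold as RD26 (2.65) but was under 1 FPKM in both genotypes, at 0.861 and 0.325 FPKM (q = 0.0315 in the authors' deposited table). ANAC100, like CUC2 and ANAC080 a target of the microRNA miR164, fell 2.3-fold, from 2.76 to 1.2 FPKM. LOV1, a repressor of flowering in long days, fell from 11.1 to 5.56 FPKM.

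Among the 11, the 3 given first here are known for roles in leaf ageing. They were picked out after their values were seen and may not be all such genes of the 11. ANAC046, which promotes chlorophyll breakdown, went from 8.79 to 5.86 FPKM (1.5-fold). ANAC059 (ORS1), which promotes senescence, went from 16.7 to 13.7 FPKM (1.22-fold, authors' q = 0.0383). ANAC083 (VNI2), which delays it, was the most abundant NAC gene of the table, going from 88.1 to 72.9 FPKM (1.21-fold, authors' q = 0.0179). ANAC080 fell 1.58-fold, ANAC075, a regulator of secondary walls, fell 1.63-fold, and ANAC050 fell 1.27-fold. RD26 came next to ANAC083 in WT level.

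**Figure D4:**
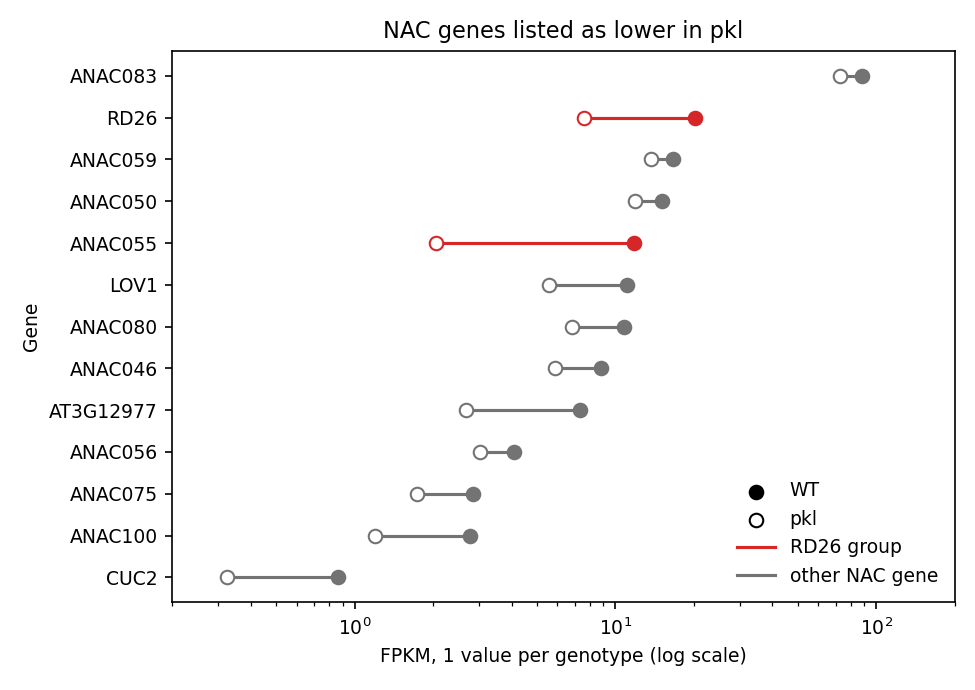
FPKM on a log axis in WT (filled) and pkl (open) for the 13 NAC genes of the table, ordered by WT level, 1 value per genotype. ANAC055 spans 11.8 to 2.05 and RD26 20.2 to 7.6 (red); ANAC083 spans 88.1 to 72.9.

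ANAC055 has another NAC gene beside it. Its nearest coding neighbour at higher coordinates, 7235 bases away, is ANAC056, which acts in seed development. ANAC056 was lower as well, from 4.1 to 3.02 FPKM (1.36-fold, authors' q = 0.0384), a far smaller fold than that of ANAC055. ANAC019 lies in a like arrangement, 6333 bases from the NAC gene NAM, and neither had a row. The other neighbour of ANAC055, AT3G15490, and both neighbours of RD26, AT4G27400 and AT4G27415, had no row. ANAC102 was itself without a row, but both its neighbours were lower, SHA1 and MUM2 by 1.44-fold each; these were named after their values were seen. In all, 3 of the 14 neighbours of members were in the table, beside 14.8% of all tests.

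Of the genes that make or break down ABA, 3 of 14 were lower, a share of 21.4% beside 14.8% of all tests. NCED3, the rate-limiting enzyme of stress-induced ABA synthesis and a reported target of ATAF1, fell 2.64-fold, a fold close to that of RD26, but from a low level of 1.1 FPKM to 0.415 FPKM. ABA1, the zeaxanthin epoxidase of the first steps, fell 1.75-fold, from 99.7 to 56.9 FPKM, and ABA4, needed for neoxanthin, fell 1.49-fold, from 20.6 to 13.9 FPKM. None of the 4 CYP707A genes, whose enzymes break ABA down, had a row.

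The signalling core had no row: 0 of 14 ABA receptors, 0 of 9 phosphatases and 0 of 5 kinases, beside 14.8% of all tests. Of 8 ABA-linked transcription factors only ABF3 (12.5%), a bZIP factor that binds the ABRE, was in the table, a share near that of all tests. Its locus fell 1.51-fold, from 99.5 to 66.1 FPKM, but also holds AT4G34030, so the value is that of the locus. COI1, the jasmonate receptor subunit, and MYC2, MYC3 and MYC4 had no row either. Since higher and unchanged genes are alike without a row, none of these absences gives a level.

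Of 17 reported or candidate targets of the group, 4 (23.5%) were lower, beside 14.8% of all tests. The list was drawn up from general knowledge, and the place of CYP707A3 in it, a gene with no row, is uncertain. Besides NCED3, the trehalase gene TRE1, reported downstream of ATAF1, fell 1.86-fold, from 6.51 to 3.5 FPKM. NYC1, a chlorophyll b reductase, fell 1.2-fold (q = 0.0182 in the authors' deposited table), and UGT74F2, which conjugates glucose to salicylic acid, fell 1.19-fold (authors' q = 0.0317). ERD1, a classic target of RD26, ANAC019 and ANAC055, had no row, and neither did VSP1 or VSP2, the storage proteins induced by jasmonate. Of 4 protein partners 1 (25%) was lower, beside 14.8% of all tests. It was RCD1, a nuclear hub protein that binds stress transcription factors, which fell 1.22-fold from 126 FPKM.

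Of 11 dehydration markers 6 (54.5%) lay in lower loci, 5 in number, beside 14.8% of all tests. Nothing is read from that difference, since the list was drawn up with earlier results of these data known. The median of these loci was 1.33-fold, under the 1.52-fold of all listed loci. COR47, a dehydrin, had the largest fold, 2.26, and fell from 438 to 194 FPKM. ERD10, RD22, RD21A and the shared locus of RD29A and RD29B fell by 1.2-fold to 1.34-fold. The value of the shared locus does not tell which of its genes was lower. RAB18 and RD20, which ABA induces strongly, had no row. Of 11 senescence markers 3 (27.3%) were lower, beside 14.8% of all tests. SEN1, a gene induced by darkness, fell 6.74-fold, from 598 to 88.7 FPKM, a larger fold than that of ANAC055. SAG29, a sucrose transporter also named SWEET15, fell 3.22-fold, from 2.48 to 0.77 FPKM, and WRKY6 fell 1.42-fold. SAG12, SAG13 and WRKY53 had no row.

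**Figure D5:**
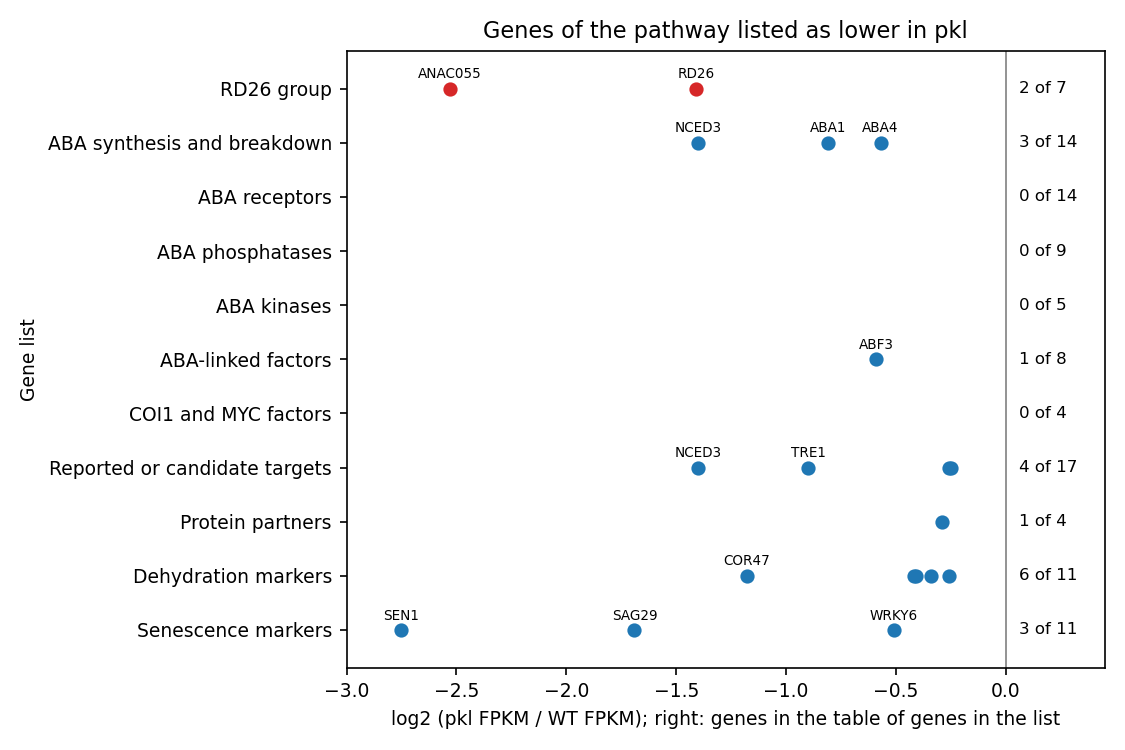
Log2 fold change of pkl over WT for each locus of the table that belongs to a list, 1 point per locus; names are given at -0.5 or below, and the count of genes in the table of all genes of the list is at the right. ANAC055 (-2.53), SEN1 (-2.75) and SAG29 (-1.69) lie farthest left.

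By level and fold, the single-gene loci most like RD26 were BCAT-1, an enzyme of branched-chain amino acid metabolism, AT4G22485, of the lipid-transfer protein superfamily, and AT4G13100, a RING protein gene. Their distances from RD26 in log2 WT FPKM and log2 fold change were 0.021, 0.050 and 0.066. In the authors' deposited table BCAT-1 went from 20.4 to 7.6 FPKM. The likeness rests on 1 value for each of 2 genotypes.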

How the data were processed

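Total RNA of 6 seedling libraries had been sequenced. TopHat, Cufflinks 2.1.1 and Cuffdiff 2.1.1 had been used with the TAIR10 build, per the submitters' processing notes. The deposited table gave 1 FPKM per genotype and locus, the log2 fold change of pkl over WT, a test score (not used), a p-value and a q-value, per the file headers. All 2896 loci were marked as changed and all were lower in pkl, with q up to 0.0499, so higher and unchanged loci were not analysed here. The deposited log2 values matched the FPKM ratios to within 1.2e-05. A fold is WT FPKM over pkl FPKM.

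The number of tests, 19554, is the one, of those searched, that brings every rank implied by p over q closest to whole. The largest gap was 0.017 (0.311 for the next best). The search stopped short of its multiples, which would also bring the ranks near whole. The calculation was also run on simulated data with an assumed mix of p-values, and the outcome is not given here. No test was added. Identifiers were matched to RefSeq TAIR10.1 (3024 of 3033), and the 2740 single-gene loci compared overlapped their genes. Sequences came from that assembly, and table starts are printed counted from 1. Coding sequences were aligned globally (Biopython 1.88). NAC genes were taken by RefSeq symbol, synonym or product. Members and lists were chosen with earlier results of these data known. All members, listed pathway genes and other NAC genes with a row were eligible to be named, with the 3 loci nearest to RD26, the neighbours of listed members and PKL. Neighbours of ANAC019 and ANAC102, which had no row, were named outside this rule. Alternatives were other limits on q, fold and level, loci of 1 gene, pseudocounts and promoter windows.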

Additional observations from a re-analysis of the deposited data

How the results depend on the processing

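RD26 and ANAC055 both passed under each of the 6 other limits tried, on q, fold, WT level and loci of 1 gene. Their values were known when the group was taken up, so this outcome was fixed in advance and is no added support. With pseudocounts of 0.1 and 1 the log2 fold change was -1.40 and -1.30 for RD26, -2.47 and -2.07 for ANAC055, and -1.49 and -1.38 for PKL. The 11 other NAC genes became 6 at q under 0.01, 7 with a fold of at least 1.5, 3 with a fold of at least 2 and 7 with at least 5 FPKM in WT. They stayed 11 when the family was taken by its domain entry, a choice made after the data were seen. The 17 lower genes among the 95 of the pathway lists (17.9%, beside 14.8% of all tests) became 7 with a fold of at least 1.5 and 4 with a fold of at least 2. Of all loci listed as lower, 74.1% were left at q under 0.01 and 52.2% with a fold of at least 1.5. With a fold of at least 2 the share was 25.8%, and with at least 5 FPKM in WT it was 78.6%. These changes follow from keeping fewer loci. No paired analysis was possible because the libraries of a genotype were combined into a single level, and for that reason no replicate was left out in turn. The depth of the libraries is unknown.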
